A study of Mus musculus with 29 samples.

Results

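The genes described are 10 components of the circadian clock, taken by symbol (Arntl, Clock, Npas2, Per1, Per2, Per3, Cry1, Nr1d1, Dbp and Tef) from the 29955 genes of the deposited mouse heart RNA sequencing table. Heart failure (HF) was induced in male C57BL6 mice (C57BL/6J in the methods), 3 months old at the start, by 5 weeks of drinking water that held L-NAME (0.3 mg/ml), which blocks nitric oxide synthases, and NaCl (1%). Angiotensin II at 0.7 mg/kg/day was given by an osmotic pump (28 days) from the end of the first week, and all agents were then withdrawn. Expression, in FPKM (fragments mapped to a gene, corrected for its transcript length and the library's total), was available for the HF stage in 2 libraries at week 3 and 3 at week 5. For the recovery phase there were 2, 2, 3, 2 and 5 libraries at weeks 7, 9, 11, 13 and 19, and the reference was 5 libraries of untreated age-matched mice at week 19 (Control week 19). Since all groups but Recovery week 19 were taken at an earlier week than these controls (HF week 5 by 14 weeks), age and condition cannot be told apart in any comparison between weeks. The mice were housed in a light/dark cycle, and the hour at which each heart was collected is not given in the sources used here. The methods state that the experiment was repeated in separate cohorts, and the cohort of a library is not given either. Harvest time, cohort and group therefore cannot be told apart in any comparison below.

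The circadian clock is a transcriptional feedback loop that runs in most cells, cardiomyocytes included. ARNTL (BMAL1) pairs with CLOCK or its relative NPAS2 and activates genes with E-box sequences, among them the period genes (Per1, Per2, Per3), the cryptochromes (Cry1, Cry2) and Nr1d1. Period and cryptochrome proteins then inhibit the activator, and NR1D1 (REV-ERB alpha) represses Arntl through ROR elements, so that Arntl RNA and the RNA of genes such as Dbp peak at opposite times of day. DBP and TEF are transcription factors of the PAR bZIP family that bind D-box sequences and pass the rhythm on to output genes. In the heart the clock is known for daily rhythms of metabolism, electrical activity and growth.

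The start site regions of the members hold some of these elements, and the ones with a match are shown to place each gene in the loop. RefSeq windows (GRCm38.p6, another build than the mm9 coordinates of the authors) were found for 9 of the 10 members, with 14 start sites in all. Each window ran from 250 bases before to 50 bases after the start site and was searched on both strands for the E-box CACGTG, the E'-box CACGTT, the D-box (TTATGTAA or TTACGTAA) and the ROR element (AA, any base, T, any base, GGTCA). Over all 32817 windows of this length 7.15% held the E-box, 4.69% the E'-box, 1.05% the D-box and 0.603% the ROR element. A match was present in 6 of the 9 members with a window. Positions are those of the first base of a match on the strand of the gene, the start site being +1, and the capitals mark the match. The windows of Clock, Npas2 and Dbp do not hold these letters.

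The Per1 window (chr11:69098699-69098948, plus strand) holds an E-box at -166, and the Cry1 window (chr10:85185055-85185304, minus strand) an E-box at -60 and an E'-box, read on the other strand as AACGTG, at -79. The Nr1d1 window (chr11:98775378-98775627, minus strand) has an E'-box at -28. Tef has an E-box at each of its start sites, at -127 in the first (chr15:81802423-81802672, plus strand) and at -138 in the other. The Per3 window (chr4:151044666-151044915, minus strand) holds a pair of D-boxes, at -205 and -158. In Arntl a ROR element lies at +28 of the second start site, within the 30 bases shown (chr7:113207528-113207557, plus strand). All are printed 5′ to 3′ on the strand of the gene, the first 5 as the 250 bases before the start site.
Per1: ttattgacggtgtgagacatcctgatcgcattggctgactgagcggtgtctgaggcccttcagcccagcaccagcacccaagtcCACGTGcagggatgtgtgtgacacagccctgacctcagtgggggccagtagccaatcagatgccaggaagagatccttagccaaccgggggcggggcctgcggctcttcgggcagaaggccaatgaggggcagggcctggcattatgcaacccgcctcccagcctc
Cry1: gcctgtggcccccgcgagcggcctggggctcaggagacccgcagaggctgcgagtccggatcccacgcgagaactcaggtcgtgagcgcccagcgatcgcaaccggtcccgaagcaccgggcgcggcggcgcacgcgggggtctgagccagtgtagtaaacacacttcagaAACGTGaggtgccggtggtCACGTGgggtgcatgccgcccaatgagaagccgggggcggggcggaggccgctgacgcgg
Nr1d1: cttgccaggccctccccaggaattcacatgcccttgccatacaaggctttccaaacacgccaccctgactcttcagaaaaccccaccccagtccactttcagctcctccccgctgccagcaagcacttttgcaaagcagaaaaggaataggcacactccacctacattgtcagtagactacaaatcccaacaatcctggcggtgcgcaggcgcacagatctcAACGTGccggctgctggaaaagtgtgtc
Tef: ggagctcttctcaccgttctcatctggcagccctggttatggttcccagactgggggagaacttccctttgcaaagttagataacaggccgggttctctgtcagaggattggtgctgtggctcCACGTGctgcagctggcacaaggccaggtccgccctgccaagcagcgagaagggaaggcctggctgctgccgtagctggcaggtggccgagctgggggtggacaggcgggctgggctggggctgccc
Per3: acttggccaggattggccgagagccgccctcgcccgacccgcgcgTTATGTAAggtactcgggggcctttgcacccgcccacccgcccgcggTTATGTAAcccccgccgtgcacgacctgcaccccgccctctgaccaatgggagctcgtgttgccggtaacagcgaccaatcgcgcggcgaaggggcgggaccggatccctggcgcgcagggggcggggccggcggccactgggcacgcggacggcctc
Arntl: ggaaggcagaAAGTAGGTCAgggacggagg

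The libraries and the tissue are described first, where they touch the results. Between 12816 and 18091 genes were above 0 in a library, and the relative depth, read from the steps between low values, ran from 0.728 to 1.40 times that of Control week 19 library 1 in the libraries that showed steps. HF week 3 library 1 showed no steps and had the fewest genes. Labels name the whole heart or ventricle and the methods apical tissue. The 4 atrial markers (Myl7, Sln, Myl4, Bmp10) summed to 7737 to 14050 FPKM in HF week 3 and to 15.5 to 39730 FPKM in HF week 5, and to 3.04 to 13.4 FPKM in every other library. In HF week 5 the atrial marker Myl7 was at 18388 FPKM in library 1, 152 in library 2 and 6.16 in library 3. The fat cell marker Adipoq was at 10.5, 15.6 and 0.0516 FPKM in the same libraries and at no more than 0.0960 FPKM in the controls. The ventricular marker Myh6 was listed at 0 in all libraries of week 19 and of HF week 5. The summed ventricular markers stood at 21048 to 42226 FPKM in those libraries. They stood at 65213 to 360582 FPKM in HF week 3 and Recovery weeks 7 to 13. Any comparison of HF week 3 or Recovery weeks 7 to 13 with HF week 5 or a week 19 group crosses this difference. Its part in the results was not tested.

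Expression of the members ranged widely over the 24 libraries. The means over all libraries were highest for Dbp (60.5 FPKM), Nr1d1 (50.9), Tef (34.2) and Per1 (17.1), and lay between 1.75 and 3.99 FPKM for Per3, Per2, Cry1, Arntl and Clock. Arntl spanned 20.4-fold from its lowest to its highest library and Dbp 19.9-fold, against 2.43-fold for Cry1 and 2.52-fold for Clock. Of the 10 members 9 passed the filter of a mean of 0.5 FPKM. Npas2 did not, at 0.135 to 0.953 FPKM, and is given with a fit that had no filter. A test of any difference among the 8 groups (limma, F test, Benjamini-Hochberg adjusted p under 0.05) called 7 of the 9 members, against 38.6% of the 12759 genes tested. With single libraries left out this count ranged from 4 to 8. The smallest adjusted p was that of Arntl (0.000148), followed by Dbp (0.000623) and Tef (0.00224), with Nr1d1, Cry1, Per2 and Per3 between 0.0121 and 0.0229. Per1 (0.0698) and Clock (0.209) did not pass.

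**Figure D1:**
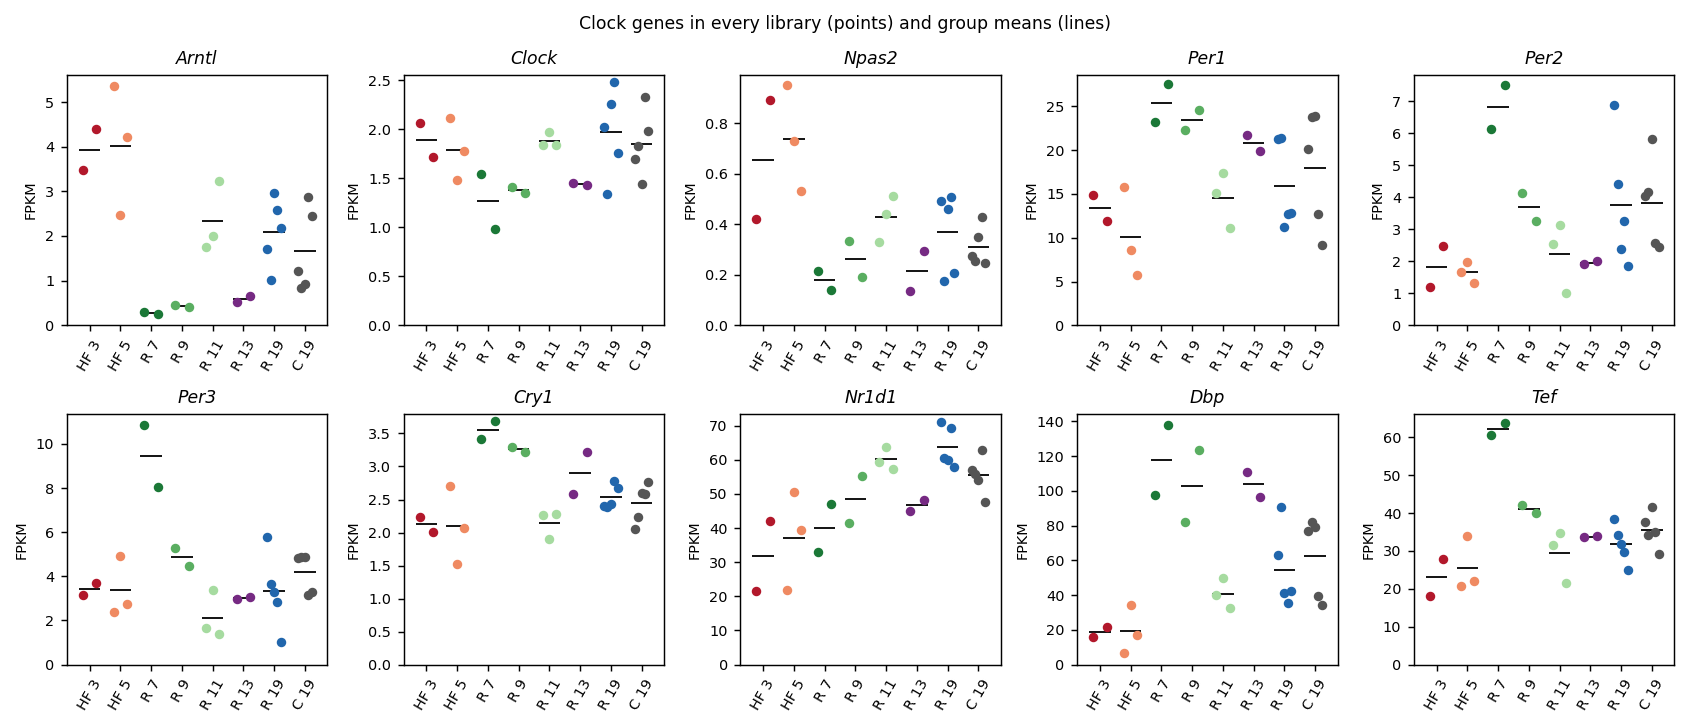
FPKM of each clock gene (one panel per gene, vertical axis from 0) in every library, by group on the horizontal axis, with points for libraries and lines for group means. Arntl was at 0.263 to 0.652 FPKM in Recovery weeks 7, 9 and 13 and at 2.48 FPKM or more in the HF libraries, and the group means of Dbp were highest in the former weeks and lowest in the latter.

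The first comparison was HF week 5 with Control week 19, which asks how the clock genes stood in the failing heart. Dbp, Per2 and Nr1d1 fell and Arntl rose: 4 of the 9 tested members passed the adjusted p, against 24.0% of all genes (11.6% higher and 12.4% lower). At an unadjusted p under 0.05 there were 6, with Per1 and Tef, against 36.5%. The median log2 fold change of the 9 members was -0.50, that of all genes 0.04. Fold changes here and below are differences of log2(FPKM + 0.5), which understate those of genes with low values. In bulk tissue fewer cells of a type and less RNA per cell cannot be told apart.

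In the positive arm, Arntl, the obligate partner of the activator, was at 5.36, 2.48 and 4.22 FPKM in HF week 5. The controls were at 1.22, 0.844, 0.931, 2.87 and 2.44 FPKM. The groups overlapped, since HF library 2 lay below control library 4. Arntl was higher by 1.12 on the log2 scale (SE 0.31, adjusted p = 0.0132), and without HF library 1 it was 0.90 with an adjusted p of 0.103. Clock, the other subunit of the activator, was at 2.11, 1.48 and 1.78 FPKM in HF and 1.44 to 2.33 FPKM in the controls (log2 fold change -0.04, 95% interval -0.37 to 0.29). Npas2, which can replace CLOCK, was at 0.953, 0.730 and 0.533 FPKM in HF and 0.246 to 0.430 FPKM in the controls. Each HF library was above each control, and without the filter the log2 fold change was 0.60 (SE 0.16, limma adjusted p = 0.0207 over 22107 genes). How far this call rests on single libraries was not examined.

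Of the negative arm Per2 fell and the other members did not pass. Per2 was at 1.68, 1.99 and 1.33 FPKM in HF, below all controls at 4.03, 4.15, 5.83, 2.58 and 2.46 FPKM. Its log2 fold change of -0.95 (SE 0.34, adjusted p = 0.0464) was close to the threshold. Its call was lost without the filter on low values (adjusted p = 0.0821), without any single one of the HF libraries 1, 2 and 3 (0.130, 0.0584 and 0.145) and without control library 1, 2 or 3 (0.0829, 0.0842 and 0.115). Per1 was at 15.8, 8.62 and 5.71 FPKM in HF and 20.2, 23.7, 23.9, 12.7 and 9.15 FPKM in the controls, so that the groups overlapped (log2 fold change -0.83, SE 0.31, adjusted p = 0.0578). Per3 gave 2.40, 4.92 and 2.75 FPKM in HF, and its library 2 was above the highest control at 4.87 FPKM (log2 fold change -0.32, 95% interval -1.0 to 0.36). The annotated span of Per3 overlaps that of Uts2, and since the sources do not say that strand was used in counting, reads of an overlap cannot be assigned with certainty. For Cry1 the HF libraries were at 2.71, 1.52 and 2.07 FPKM and the controls at 2.06 to 2.77 FPKM (log2 fold change -0.20, 95% interval -0.48 to 0.07).

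Nr1d1, the repressor of Arntl, was at 21.8, 50.4 and 39.3 FPKM in HF and at 57.1, 55.9, 54.2, 62.7 and 47.8 FPKM in the controls. HF library 2 lay above the lowest control. The log2 fold change was -0.65 (SE 0.22, adjusted p = 0.0361), and without HF library 1 it was -0.31 with an adjusted p of 0.342. The call also ended under quantile normalization (0.0623), without the filter (0.0592), with only these groups in the fit (0.0676), and without control library 1, 2, 3 or 4 (0.0594 to 0.0760). The span of Nr1d1 overlaps that of Thra, with the same limit on the assignment of reads as for Per3.

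Among the output factors, Dbp had the largest change of the members tested. Its HF libraries were at 6.91, 34.3 and 16.9 FPKM, and the controls at 77.1, 82.2, 78.9, 39.5 and 34.3 FPKM. All HF values were below all controls, although HF library 2 (34.2587 FPKM) and control library 5 (34.2685 FPKM) nearly met. The log2 fold change was -1.84 (SE 0.40, adjusted p = 0.00314), and without HF library 1 it was -1.26. The span of Dbp overlaps that of its neighbour Sphk2, with the same limit on the assignment of reads. Tef was at 20.7, 33.9 and 21.97 FPKM in HF and 37.7, 34.2, 41.7, 34.9 and 29.2 FPKM in the controls, and the groups overlapped through HF library 2 (log2 fold change -0.50, SE 0.18, adjusted p = 0.0538). The groups did not overlap in 2 of the 9 members, Dbp and Per2, against 29.5% of all genes. HF library 3, with atrial markers summing to 15.5 FPKM and Adipoq at 0.0516 FPKM, was above every control in Arntl and below every control in Dbp, Per1, Per2, Per3, Nr1d1 and Tef. With that library as the only one of HF week 5, Dbp had a log2 fold change of -1.76 (adjusted p = 0.0537) and Arntl one of 1.23 (0.140). The fibroblast markers, which summed to 291 to 577 FPKM in HF and 197 to 284 FPKM in the controls, moved with these differences, and their part in them was not tested.

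**Figure D2:**
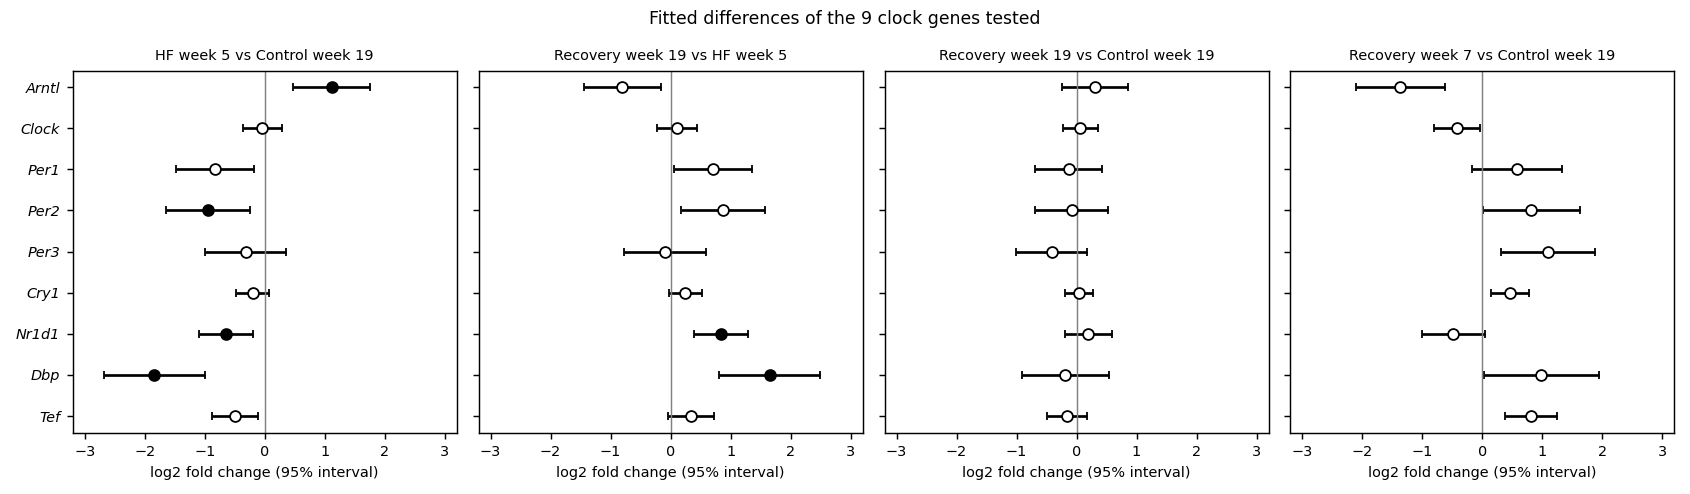
Log2 fold changes (horizontal axis) of the 9 tested clock genes with 95% intervals, in one panel per comparison. The panels are HF week 5, Recovery week 19 and Recovery week 7 against Control week 19, and Recovery week 19 against HF week 5. Dbp lies at -1.84 in HF week 5 against Control week 19 and at 1.65 in Recovery week 19 against HF week 5. Every interval for Recovery week 19 against Control week 19 includes 0.

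The earlier HF stage was set against the same 5 controls as HF week 5, so that the results of these comparisons are not independent. In HF week 3 against Control week 19, 4 of 9 members passed, against 50.7% of all genes, so that their share was below that of the table as a whole. Arntl was at 3.47 and 4.39 FPKM, above every control (log2 fold change 1.13, SE 0.35, adjusted p = 0.0119). Dbp was at 15.9 and 21.6 FPKM, below every control (-1.63, SE 0.46, adjusted p = 0.00650). Nr1d1 (21.4 and 42.0 FPKM, log2 fold change -0.87) and Tef (18.1 and 27.9 FPKM, -0.64) were below every control too, with adjusted p-values of 0.00697 and 0.0161. Per2, at 1.19 and 2.48 FPKM, did not pass (-0.89, adjusted p = 0.0616). Npas2, at 0.419 and 0.895 FPKM, overlapped the controls and did not pass in the fit without the filter (0.49, limma adjusted p = 0.0561). Without library 1, the one with few genes and no steps, only Arntl passed. The log2 fold change was then -1.42 for Dbp (adjusted p = 0.0884), -0.39 for Nr1d1 (0.308) and -0.33 for Tef (0.338). Without library 2, or with only these groups in the fit, Arntl did not pass (0.0733 and 0.0626). Of the 5 fibroblast markers 4 were higher in HF week 3 (summed 488 to 549 FPKM, against 197 to 284 FPKM in the controls). Of the 8 ventricular markers 4 were lower and 1 was higher (Myh6, listed at 0 in the controls), and 3 of 3 tested atrial markers were higher. Of 3 tested fat cell markers 2 were higher, and of 4 endothelial markers 2 were higher and 1 was lower. Among 4 tested leukocyte markers 1 was lower. The part of these cells in the differences was not tested.

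The return from HF was read from Recovery week 19 against HF week 5. Dbp and Nr1d1 rose, 2 of 9 members against 24.2% of all genes (12.3% higher), so that the share of members called was close to that of the table as a whole. At an unadjusted p under 0.05 there were 5, with Arntl, Per1 and Per2, against 36.8%, and the median of the members was 0.34, against -0.04 over all genes. Dbp at Recovery week 19 was at 63.1, 90.7, 41.0, 35.3 and 42.4 FPKM, each above the HF libraries (log2 fold change 1.65, SE 0.40, adjusted p = 0.00623). Nr1d1 was at 71.0, 60.6, 59.9, 69.2 and 57.7 FPKM, again each above the HF libraries (0.84, SE 0.22, adjusted p = 0.00881). Without HF library 1 the log2 fold change was 1.07 for Dbp (adjusted p = 0.0752) and 0.51 for Nr1d1 (0.0999), so that both calls were lost, while Per1 (1.07, adjusted p = 0.0362) and Cry1 (0.41, 0.0475) passed. In the same comparison 3 of 3 tested atrial markers, 2 of 3 tested fat cell markers and 1 of 5 fibroblast markers fell, and their part in the result was not tested. Arntl was at 1.70, 1.02, 2.96, 2.58 and 2.18 FPKM, so that recovered hearts overlapped the HF hearts (-0.81, adjusted p = 0.0626), and Per2 at 6.90, 4.41, 2.38, 3.27 and 1.86 FPKM did so as well (0.87, adjusted p = 0.0658). Npas2 had a log2 fold change of -0.52 without the filter (adjusted p = 0.0428). This comparison shares the HF libraries with the first.

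Against Control week 19, Recovery week 19 gave no call: 0 of 9 members at the limma adjusted p, and 0 at an unadjusted p under 0.05, against 0.0235% and 2.88% of all genes. The adjusted p was 1 for each. The intervals show what differences remain possible. For Arntl the log2 fold change was 0.31 (95% interval -0.25 to 0.87), for Dbp -0.19 (-0.91 to 0.54), for Per3 -0.42 (-1.01 to 0.17) and for Per2 -0.08 (-0.69 to 0.53). The closest limits were those of Cry1 (0.04, -0.19 to 0.28) and Clock (0.06, -0.22 to 0.35). Tef stood at -0.16 (-0.49 to 0.17), Per1 at -0.13 (-0.69 to 0.43) and Nr1d1 at 0.20 (-0.20 to 0.59).

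Arntl was lowest in the earlier recovery weeks. It was at 0.297 and 0.263 FPKM at week 7, at 0.453 and 0.418 FPKM at week 9, at 1.76, 2.00 and 3.24 FPKM at week 11 and at 0.529 and 0.652 FPKM at week 13. The libraries of weeks 7, 9 and 13 lay below every control and every Recovery week 19 library, whereas at week 11 libraries 1 and 2 lay within the range of the controls and library 3 above it. Dbp was at 97.4 and 138 FPKM (week 7), 82.3 and 124 FPKM (week 9), 40.2, 49.97 and 32.4 FPKM (week 11) and 111 and 96.6 FPKM (week 13). Its values at weeks 7, 9 and 13 were all above the highest control (82.2 FPKM), week 9 library 1 by less than 0.1 FPKM, but Recovery week 19 library 2 (90.7 FPKM) lay above week 9 library 1. In the order of group means Arntl ran from HF week 5 (4.02 ± 1.45 FPKM, SD, n = 3) and HF week 3 (3.93 ± 0.650, n = 2) over Recovery week 11 (2.34 ± 0.791, n = 3), Recovery week 19 (2.09 ± 0.760, n = 5) and Control week 19 (1.66 ± 0.931, n = 5) to Recovery weeks 13, 9 and 7 (0.591 ± 0.0872, 0.435 ± 0.0250 and 0.280 ± 0.0240, n = 2 each). Neighbours overlapped in their libraries among HF week 5 and HF week 3 and among Recovery week 11, Recovery week 19 and Control week 19. The other neighbours in this order did not overlap.

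Tested as the mean of weeks 7 to 13 against Control week 19, 0 of 9 members passed the limma adjusted p, against 0.0705% of all genes. At an unadjusted p under 0.05 there were 2, against 6.90%: Arntl (log2 fold change -0.72, SE 0.24, adjusted p = 0.486) and Cry1 (0.22, SE 0.10, adjusted p = 0.706). Against Recovery week 19 there were again 0 of 9 (0.0392% of all genes) and 5 at the unadjusted p, against 7.33%. These were Arntl (-1.03), Dbp (0.70), Nr1d1 (-0.40), Tef (0.33) and Clock (-0.31), with adjusted p-values of 0.198 for Arntl and 0.586 to 0.645 for the others. The 10 most abundant genes took 27.9% to 37.4% of all FPKM in the libraries of weeks 7 to 13 and 14.6% to 18.8% in those of HF week 5 and of week 19. In HF week 3 they took 19.8% in library 1 and 37.5% in library 2. The part of this in the differences was not tested.

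Taken singly, a choice made after the values were seen, week 7 stood farthest from the controls. No member passed the adjusted p (0 of 9, against 0.0470% of all genes), 7 had an unadjusted p under 0.05, against 3.61%, and 7 did not overlap the controls, against 15.6%. Tef, at 60.7 and 63.9 FPKM, was above the highest control at 41.7 FPKM (log2 fold change 0.81, SE 0.21, adjusted p = 0.505). Per3 at 10.9 and 8.04 FPKM (1.09), Per2 at 6.12 and 7.52 FPKM (0.82) and Cry1 at 3.42 and 3.69 FPKM (0.46) were above every control, as was Dbp (0.98), each with an adjusted p of 1. Arntl differed by -1.37 on the log2 scale (SE 0.35, adjusted p = 0.505), and Clock, at 1.54 and 0.984 FPKM, by -0.42 (adjusted p = 1) with overlap. Nr1d1, at 33.0 and 47.1 FPKM, was below every control (-0.48, adjusted p = 1), so that at this week it did not go with Dbp and the period genes. Week 9 had 0 members at the limma adjusted p (0.0549% of all genes) and 2 at the unadjusted p, Arntl (-1.10) and Cry1 (0.36), against 3.60%. Week 11 had 0 (0.149%) and 1, Per3 (-0.89), against 8.45%. Week 13 had 0 (0.0784%) and 1, Arntl (-0.88), against 10.4%. Per2, at 1.91 and 2.01 FPKM at week 13, was below every control there, while Dbp was above them.

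**Figure D3:**
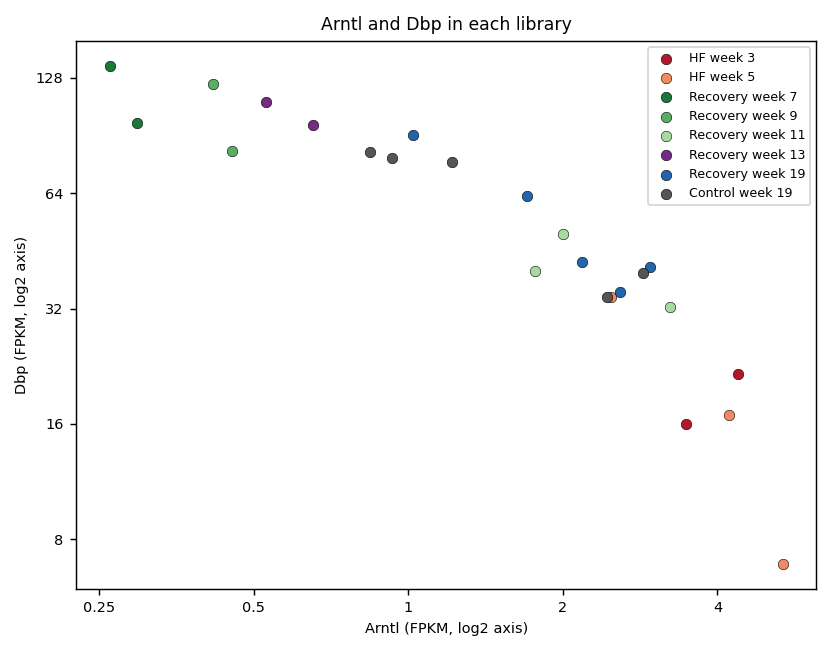
Arntl (horizontal, FPKM) against Dbp (vertical, FPKM) on log2 axes, one point per library, coloured by group. Libraries run from high Arntl with low Dbp (HF week 5 library 1, 5.36 and 6.91 FPKM) to low Arntl with high Dbp (Recovery week 7 library 2, 0.263 and 138 FPKM), and HF week 5 library 2 lies beside Control week 19 library 5.

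Arntl and Dbp varied in opposite directions within groups as well as between them, and the other members did so to different degrees. On the log2(FPKM + 0.5) scale, Arntl minus Dbp was -5.50, -5.94 and -5.79 in control libraries 1 to 3 and -3.57 and -3.56 in libraries 4 and 5. At Recovery week 19 it was -4.85 and -5.91 in libraries 1 and 2 and -3.58, -3.54 and -4.00 in the rest. HF week 5 spanned -0.34, -3.54 and -1.88, HF week 3 gave -2.05 and -2.17, and weeks 7, 9 and 13 lay between -7.50 and -6.40. Week 11 gave -4.17, -4.33 and -3.14, a range that overlaps those of the week 19 groups. The value of HF week 5 library 2 lay within 0.03 of those of control libraries 4 and 5, and above those of the other controls.

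Over the 30 pairs of libraries that share a group, Arntl and Dbp took opposite orders in 26. Per1 had the order of Dbp in 25 of the 30 pairs, Per3 in 23, Per2 and Tef in 22 and Nr1d1 in 19. Cry1 had the order opposite to Dbp in 25, Clock in 22 and Npas2 in 20. Over all 24 libraries, groups included, Cry1 had a Pearson r of 0.44 with Dbp, the other sign than its order within groups. Nr1d1 had the order opposite to Arntl in 17 pairs and the same order in 13, and its r with Arntl over the libraries was -0.17. Pairs of 1 group share libraries, so these are counts without a test. The residual SD within groups on the log2 scale was 0.60 for Dbp, at the 94.0th percentile of all genes tested, 0.50 for Per2 (89.5), 0.48 for Per3 (88.5), 0.46 for Per1 (87.0) and 0.45 for Arntl (85.9). It was 0.31 for Nr1d1 (66.6), 0.26 for Tef (51.5), 0.20 for Clock (31.5) and 0.16 for Cry1 (14.3), and the median over all genes was 0.26. The spread between libraries of 1 group was therefore wide for 5 of the 9 members and not for the others.

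The genes whose pattern over the 24 libraries was most like that of Dbp were Mid1ip1 (Pearson r = 0.95), Sphk2 (0.94), Gm129 (0.91), Dgat2 (0.91) and Hdac3 (0.88). Those most like Arntl were Ppfibp1 (0.87), Dtx4 (0.85), Elk3 (0.84), Rhoj (0.83) and Gngt2 (0.82). Of all genes tested, Dbp was the most opposite to Arntl (r = -0.93), before Sphk2 (-0.91), the mitosis kinase gene Wee1 (-0.86), Mid1ip1 (-0.85) and Dgat2 (-0.83). Those most opposite to Dbp were Arntl, Ccdc50 (-0.88), Rasl11a (-0.88), Osmr (-0.87) and Abi1 (-0.86). The libraries share their groups, and the values are a description over 24 libraries. Sphk2 overlaps Dbp in the annotation. Mid1ip1 was at 24.3 ± 13.4 FPKM in HF week 5 (n = 3), 61.5 ± 14.7 FPKM in Control week 19 (n = 5) and 94.999 ± 13.2 FPKM in Recovery week 7 (n = 2).

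Other clock genes were taken from a list. Of 17 symbols 16 were in the table and 13 passed the filter. In HF week 5 against Control week 19, 3 fell and 1 rose, against 12.4% and 11.6% of all genes, and the median log2 fold change was -0.40, against 0.04 over all genes. Gm129, an older symbol of the gene of the repressor CHRONO, was at 0.858, 2.84 and 1.53 FPKM in HF and 12.4, 16.3, 13.8, 6.25 and 3.95 FPKM in the controls, with no overlap (-2.23, SE 0.51, adjusted p = 0.00434). It took the order of Dbp in 30 of the 30 pairs within groups. Bhlhe41, which codes for the E-box repressor DEC2, was at 0.763, 2.85 and 1.65 FPKM in HF and 2.55 to 6.96 FPKM in the controls (-1.42, adjusted p = 0.0196). Cry2, the second cryptochrome, fell (-0.66, adjusted p = 0.00310). Timeless rose (0.70, adjusted p = 0.00966). In Recovery week 19 against HF week 5, 4 rose, against 12.3% of all genes, and 1 fell, with a median of 0.61: Gm129 (1.96), Bhlhe41 (1.70), Cry2 (0.78) and Btrc (0.98, a subunit of the ligase for period proteins) rose, and Timeless fell (-0.72). In HF week 3 against the controls 2 rose and 6 fell, 8 of 13, against 50.7% of all genes called in either direction.

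Genes known to be under clock control in the heart or other tissues were taken from a second list. Of 10 listed and tested, 6 fell in HF week 5 against Control week 19 and none rose, against 12.4% of all genes lower and 11.6% higher, with a median log2 fold change of -0.70. Kcnip2, a subunit of the channel of the transient outward current, was at 2.50, 13.6 and 10.4 FPKM in HF and 16.4 to 36.5 FPKM in the controls (-1.97, SE 0.34, adjusted p = 0.000633). Klf15, a transcription factor of metabolic genes that itself regulates Kcnip2, was at 10.8, 9.83 and 9.18 FPKM in HF and 29.5, 29.1, 28.9, 31.8 and 20.9 FPKM in the controls (-1.44, SE 0.17, adjusted p = 3.85e-05). Klf9 (-1.42), the ubiquitin protease gene Usp2 (-1.20), Wee1 (-0.85) and Nampt (-0.55), which makes a precursor of NAD, fell with adjusted p-values of 0.00148 to 0.00863. In Recovery week 19 against HF week 5 these 6 rose by 0.45 (Nampt) to 2.09 (Kcnip2), against 12.3% of all genes higher, and the median of the list was 0.71. At Recovery week 19 against Control week 19 neither list had a call.

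**Figure D4:**
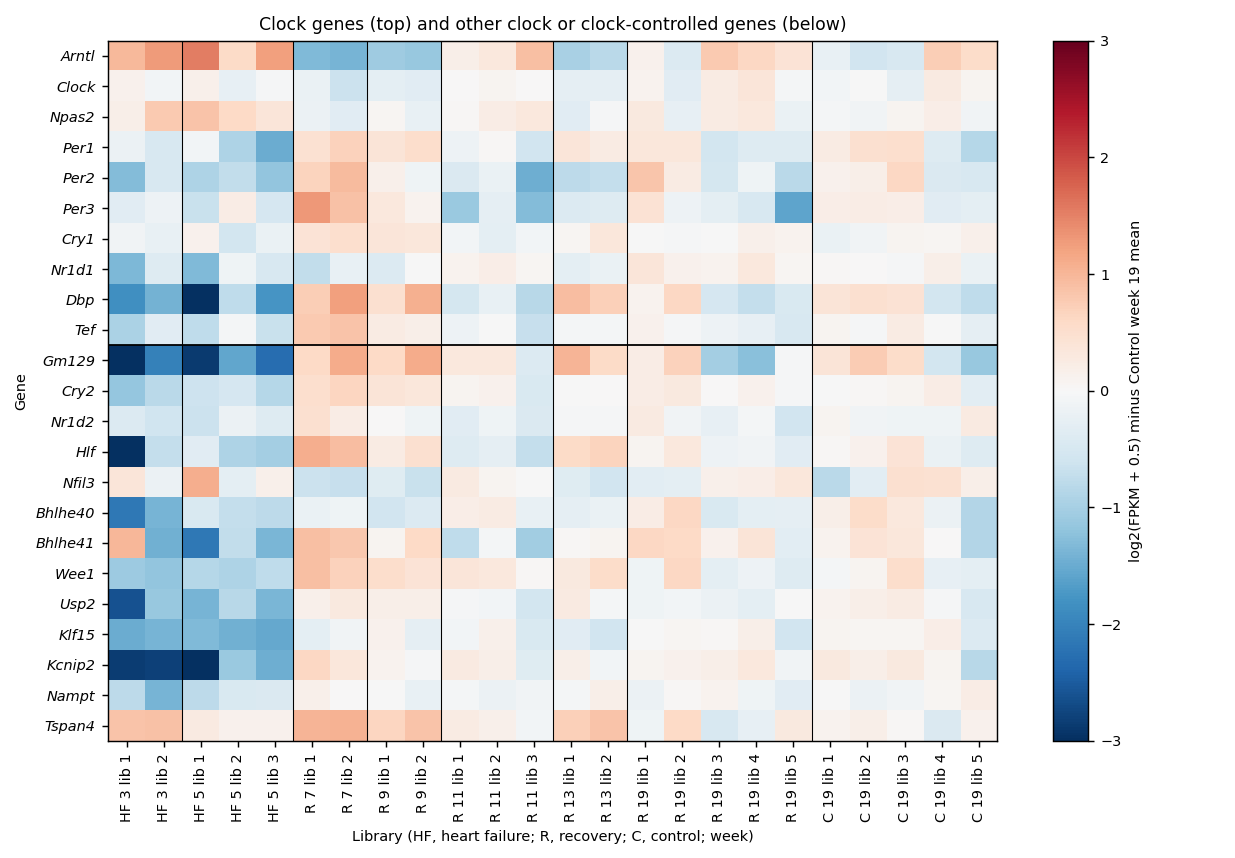
Log2(FPKM + 0.5) minus the mean of Control week 19 (colour) for the clock genes (upper rows) and the other clock and clock-controlled genes (lower rows) in each library (columns, by group and week). Dbp, Gm129 and Usp2 are low in the HF libraries, Dbp and Gm129 are high in Recovery weeks 7, 9 and 13, and Arntl has the opposite colours to Dbp there.

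HF week 5 library 2, which was close to control libraries 4 and 5 in Arntl minus Dbp, was set beside both after its values were seen. Likeness in Arntl and Dbp follows from this choice and is no separate result. Arntl was at 2.48 FPKM in the HF library and at 2.87 and 2.44 FPKM in control libraries 4 and 5, and Dbp at 34.3 FPKM against 39.5 and 34.3 FPKM. Gm129 was at 2.84 FPKM against 6.25 and 3.95 FPKM, Per2 at 1.99 against 2.58 and 2.46 FPKM, and Cry1 at 1.52 against 2.58 and 2.77 FPKM. Per1 (8.62 against 12.7 and 9.15 FPKM) and Clock (1.48 against 2.33 and 1.98 FPKM) were lower in the HF library too. Per3 was higher there, at 4.92 FPKM against 3.17 and 3.30 FPKM, as was Npas2 (0.730 against 0.430 and 0.246 FPKM). Tef (33.9 against 34.9 and 29.2 FPKM) and Nr1d1 (50.4 against 62.7 and 47.8 FPKM) lay between the controls. Among the output genes, Usp2 was at 19.6 FPKM against 34.3 and 25.1 FPKM, Kcnip2 at 13.6 against 31.6 and 16.4 FPKM and Wee1 at 1.58 against 2.82 and 2.69 FPKM. Klf15 was at 9.83 FPKM against 31.8 and 20.9 FPKM. Control library 5 had the lowest Gm129, Usp2, Kcnip2, Wee1 and Klf15 of the 5 controls. In Klf15 the 3 HF libraries lay closer together (9.18 to 10.8 FPKM) than in Dbp (6.91 to 34.3 FPKM). This HF library had Adipoq at 15.6 FPKM, the highest of all libraries, and Myl7 at 152 FPKM, against at most 0.0960 and 1.12 FPKM in the controls, and the part of this in the values was not tested. With 1 HF library these values carry no test.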

How the data were processed

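Poly(A) RNA of mouse hearts was sequenced as read pairs. The authors aligned reads with TopHat2 to mm9 and deposited the FPKM of Cuffdiff, a value per gene and library; annotation and strand handling are not given in the sources used here. Absolute depth is unknown, so the spread between libraries is the only error given. Libraries were assigned to groups by the week in the column names. The p-values set a difference between groups against the spread of libraries within groups, pooled over all groups. The cohort of each library is not given, so it is not known whether this spread includes variation between cohorts. Not used were 5 columns named for week 5 controls, for which 4 samples are labelled; Control week 19 was used instead of the planned Control week 5. Recovery week 9 has 2 columns for 3 labelled samples.

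The members, gene lists and comparisons were chosen with earlier results of these data known. The results of 1 listed gene are left out. The 12759 of 29955 genes whose mean reached 0.5 FPKM were fitted as log2(FPKM + 0.5) with limma 3.58.1 (R 4.3.3), one mean per group over 24 libraries, 16 residual degrees of freedom and a trend on the mean. Tests were two-sided, and a gene was called at a Benjamini-Hochberg adjusted p under 0.05 over all genes tested. The unadjusted p under 0.05 is given where useful. All members were named, with the 5 genes most like and most opposite to Arntl and to Dbp by Pearson r. On simulated data for 12759 genes, 72 of 100 genes changed by 1 (log2) and 97 of 100 changed by 2 were recovered. The change was set in HF week 5 only (3 libraries, against 5 of Control week 19), with normal noise of each gene's residual SD. These rates therefore do not carry over to weeks with 2 libraries. Alternatives were pseudocounts of 0.1 and 1, no filter, median centring, quantile normalization, only the groups compared, a fit without HF week 3, and each library left out. Figures were drawn with matplotlib 3.10.9 from tables made with pandas 2.3.3 in Python 3.11.15.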

Additional observations from a re-analysis of the deposited data

How the results depend on the processing

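Of the counts of members called, that of HF week 5 against Control week 19 was 4 and ranged from 2 to 6 with single libraries left out. It was 2 without control library 1, 2 or 3 or HF library 1, and 0 without HF libraries 1 and 2, an alternative added after seeing the data in which the lone HF library is assumed to vary like the other groups. Recovery week 19 against HF week 5 gave 2, with a range of 2 to 4 over single libraries (4 without HF library 2; without HF library 1 Per1 and Cry1 passed in place of Dbp and Nr1d1), 5 at the unadjusted p and 0 without HF libraries 1 and 2. HF week 3 against Control week 19 gave 4, with a range of 1 to 5 (1 without HF week 3 library 1). The test over all groups gave 7, with a range of 4 to 8 (4 without Recovery week 7 library 2). At the unadjusted p the counts of 0 became 2 for Recovery weeks 7 to 13 against Control week 19, 5 for the same weeks against Recovery week 19, 7 for week 7, 2 for week 9, 1 for week 11 and 1 for week 13 against the controls. No called value of the tested members changed sign under any alternative run. The alternatives were not followed for Npas2 or for the genes of the other lists. The fall of Dbp in HF week 5 ranged from -2.38 to -1.26 and kept its call in 16 of 17 alternatives, and the rise of Arntl ranged from 0.90 to 1.39 and kept it in 15 of 17. Per1 and Tef, which did not pass in HF week 5, passed with median centring (adjusted p = 0.0379 and 0.0292) and without the HF week 3 libraries (0.0473 and 0.0298). Per2 in Recovery week 19 against HF week 5 passed with median centring (0.0441), quantile normalization (0.0228) and without HF week 3 (0.0467). The causes were not tested. No paired analysis was made, since the paper states that mice were sacrificed at each time point, so that the groups hold different animals. The numbers of the library columns could not be matched to the labelled animals.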

Other observations

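Hormone and temperature signals can set peripheral clocks, and lists of genes that respond to them were looked at in the same fit. Of 6 glucocorticoid-responsive genes, 4 rose in HF week 3 against Control week 19, among them Mt2 (1818 ± 812 FPKM, SD, n = 2, against 127 ± 19.3, n = 5; log2 fold change 3.77, limma adjusted p = 1.24e-05) and Fkbp5 (1.76, adjusted p = 0.000855), and 1 fell (Zbtb16, -1.22). In that comparison 50.7% of all genes were called, and library 1 of HF week 3 was the one with few genes and no steps. Mt2 was at 1244 and 2392 FPKM in its libraries 1 and 2, and Fkbp5 at 83.5 and 24.5 FPKM. In HF week 5 none rose and 2 fell, Zbtb16 (-1.95) and Sgk1 (-0.73), against 11.6% and 12.4% of all genes, and both rose from there to Recovery week 19 (2.15 and 0.74), against 12.3% of all genes. Of 6 temperature-responsive genes, 1 rose in HF week 5 and none fell, against 11.6% and 12.4% of all genes: Rbm3, a cold-inducible RNA-binding protein gene (70.1, 73.2 and 205 FPKM in order of size, against 53.3 to 63.6 FPKM in the controls; 0.80, adjusted p = 0.0167). From there to Recovery week 19, 2 fell and none rose, Rbm3 (-0.98) and Cirbp (-0.57), against 24.2% of all genes called in either direction. In HF week 3, Cirbp (-0.94) and Hspa8 (-0.51) fell, 2 of 6 against 50.7%. Neither list had a call in Recovery week 19 against Control week 19.

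Weeks of one phase were also set against each other with limma. Over 10 pairs of recovery weeks, 0 of 90 tests of members passed the adjusted p and 32 had an unadjusted p under 0.05, while 0 to 0.110% of all genes passed the adjusted p in a pair and 2.31% to 11.6% had an unadjusted p under 0.05. In HF week 3 minus HF week 5, 0 of 9 members passed and 0 had an unadjusted p under 0.05, whereas 21.4% and 39.1% of all genes did so. The smallest adjusted p was 0.0614, for Recovery week 7 minus week 11, where Per3 differed by 1.98, Arntl by -1.83 and Tef by 1.10 on the log2 scale. In groups of 5 libraries, none of 20 combinations of member and group held a library far from the others by Dixon's criterion.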
